A study of Homo sapiens with 12 samples.

Results

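The 10 genes APCDD1, NKD1, AXIN2, NOTUM, ZNRF3, RNF43, DKK1, DKK4, WIF1 and SP5 encode negative feedback inhibitors of WNT signalling. They were chosen by name, as known feedback genes, but with earlier results of these data known. All 10 were found among the 60671 genes of the count table. RNA sequencing was done in LS180, an established human colorectal cancer line with goblet cell features that is known to carry an activating mutation of CTNNB1, the gene of beta-catenin. There were 3 derivatives of LS180, and each expresses 1 protein when doxycycline is added: GFP as the control, wild-type SOX9, or M303, a shortened SOX9. SOX9, a transcription factor, is made in the stem, progenitor and Paneth cells of the intestine. Cells of each derivative were sequenced untreated or induced for 24 h with doxycycline at 0.5 µg/ml, which made 6 groups of 2 libraries. Each protein was expressed in a derivative of its own, and a difference between constructs and a difference between derivatives cannot be told apart. Whether the 2 libraries of a group came from separate cultures is not given in the sources used here, and p-values therefore reflect the spread between these libraries alone, which may be technical.

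When a WNT ligand binds Frizzled and LRP5 or LRP6 at the cell surface, the destruction complex in the cytoplasm stops degrading beta-catenin, which then enters the nucleus and activates target genes with TCF and LEF factors. Several of these targets encode inhibitors of the same pathway, acting on the ligand, the receptor, Dishevelled, the destruction complex or the target genes, and so limit the signal. In the colon the pathway maintains the stem cells at the crypt base, and most colorectal cancers carry a mutation that keeps it active.

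Read counts per gene were scaled to counts per 1000000 counts of a library (CPM) with the effective library sizes of edgeR, and its robust quasi-likelihood test was run over all genes with a filter on low counts. A gene was called changed at a Benjamini-Hochberg adjusted p under 0.05 over the 18219 genes tested, and every adjusted p below comes from that test. Library totals ranged from 31012775 to 48529770 counts, and no library stood apart in its scaling factor (0.981 to 1.02). The SOX9 gene, whose reads pool endogenous and construct transcripts, stood at 357 to 405 CPM in the 8 libraries that expressed no SOX9 construct. It reached 712 and 761 CPM in the induced wild-type SOX9 libraries and 818 and 867 CPM in the induced M303 libraries. Epithelial identity of the cells was checked with 12 colon epithelial markers, all of which had a mean of at least 1 CPM. Their summed level was 10393 and 10384 CPM in the induced SOX9 libraries and 11294 to 12703 CPM in the others. With SOX9, 7 of the 12 were called lower, where 1.16% of all genes were: KRT20, MUC2, TFF3, LGALS4, CDX1, CDX2 and VIL1. EPCAM, CDH1, KRT8, KRT18 and GPA33 were not called. Of 10 markers of immune cells, fibroblasts, pericytes and endothelium, only PDGFRB had a mean above 1 CPM, at 1.06, and CD3E had no count. The summed level of those 10 was 1.10 to 2.80 CPM over the 12 libraries, 2.43 and 2.29 in the induced SOX9 libraries. The part of the fall in epithelial markers in the results below was not tested.

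Inducing wild-type SOX9 raised APCDD1 and NKD1, and no other member was called. APCDD1, a membrane protein that can bind WNT and its co-receptor, rose 3.94-fold. NKD1, which binds Dishevelled in the cytoplasm, rose 2.21-fold. AXIN2, ZNRF3 and RNF43, the feedback genes with the highest levels per kilobase, each stayed within a 1.26-fold range over all 12 libraries. NOTUM, near 1 CPM, was highest in the 2 induced SOX9 libraries, SP5 had its highest level in 1 of them, and neither passed the test. APCDD1 and NKD1 rose significantly more with wild-type SOX9 than with M303 or with GFP.

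Before induction the members spanned a wide range of levels. Per kilobase of exon sequence that no other annotated gene shares, the mean of the 6 uninduced libraries was 42.2 CPM for AXIN2, with single libraries from 40.6 to 44.5. RNF43 followed at 34.8 CPM per kilobase (32.3 to 38.3), ZNRF3 at 20.0 (18.6 to 21.4) and DKK1 at 14.2 (12.1 to 16.8). NKD1 was at 5.53 CPM per kilobase (5.05 to 5.99) and APCDD1 at 4.56 (4.28 to 5.27), so the libraries of neighbours in this order overlapped only for NKD1 and APCDD1 among these 6 genes. DKK4, SP5 and NOTUM lay between 0.240 and 0.397 CPM per kilobase, with overlapping libraries, and WIF1 had no count. In the induced SOX9 libraries APCDD1 was at 18.8 and NKD1 at 11.7 CPM per kilobase, which moved APCDD1 from the sixth to the fourth place of the 10 and above DKK1 at 14.5. The lengths join all annotated exons of a gene, 17292 unshared bases for NKD1, so this order depends on the annotation. In CPM alone, uninduced NKD1 (87.3 to 104) lay above RNF43 (63.2 to 75.0).

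The plot of member levels gives each library.

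**Figure D1:**
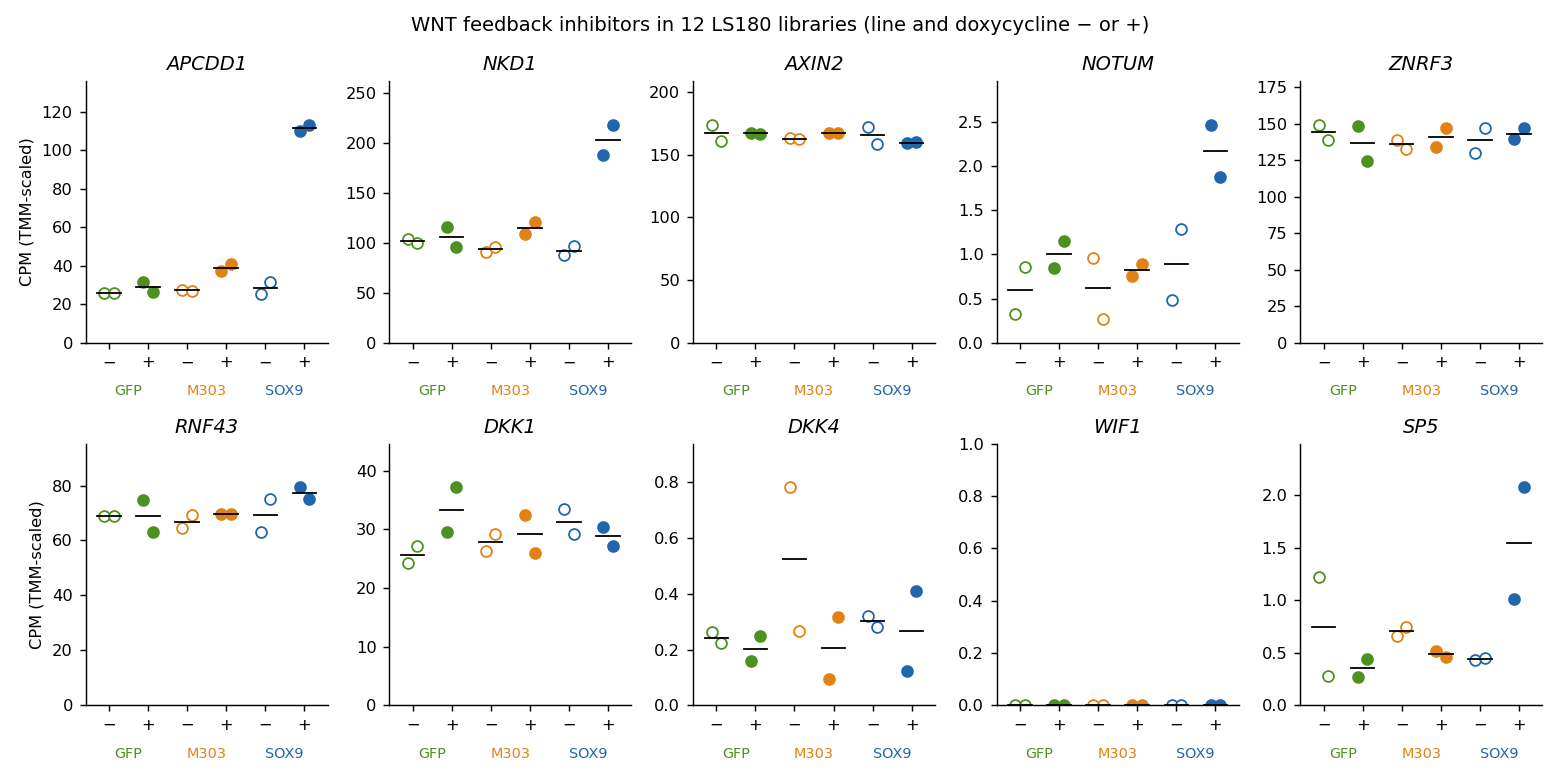
Level of each member in CPM (scaled with edgeR's TMM factors) on linear axes that start at 0, with 1 point per library, open without and filled with doxycycline, and a line at the mean of each group of 2. APCDD1 and NKD1 stand apart in the induced SOX9 libraries, at 109.9 and 113 CPM and at 188 and 218 CPM, and WIF1 is at 0 throughout.

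The 250 bases before the start of APCDD1, DKK1 and SP5 are shown because APCDD1 was called with wild-type SOX9, while DKK1 and SP5, both known as direct targets of the pathway, were not. The windows come from RefSeq on GRCh38.p14, where 5 of the 10 members matched, with 6 windows, since RNF43 has 2 starts. NKD1, AXIN2, NOTUM, ZNRF3 and DKK4 had no entry. Capitals mark letters that match the TCF/LEF core, searched on both strands as CTTTGAA and as its variants that end in AT, TA or TT in place of AA. The 3 windows lie on the plus strand at chr18:10454385-10454634, chr10:52314031-52314280 and chr2:170715087-170715336.
APCDD1: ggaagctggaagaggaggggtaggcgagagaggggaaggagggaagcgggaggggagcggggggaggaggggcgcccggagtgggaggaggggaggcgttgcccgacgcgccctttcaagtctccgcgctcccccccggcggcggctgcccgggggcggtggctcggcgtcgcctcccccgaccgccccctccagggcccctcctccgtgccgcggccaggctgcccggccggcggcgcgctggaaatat
DKK1: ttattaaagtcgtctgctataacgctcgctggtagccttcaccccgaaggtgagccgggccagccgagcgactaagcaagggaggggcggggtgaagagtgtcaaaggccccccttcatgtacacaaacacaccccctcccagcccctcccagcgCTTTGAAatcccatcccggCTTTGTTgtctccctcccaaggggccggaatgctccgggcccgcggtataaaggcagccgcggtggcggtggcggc
SP5: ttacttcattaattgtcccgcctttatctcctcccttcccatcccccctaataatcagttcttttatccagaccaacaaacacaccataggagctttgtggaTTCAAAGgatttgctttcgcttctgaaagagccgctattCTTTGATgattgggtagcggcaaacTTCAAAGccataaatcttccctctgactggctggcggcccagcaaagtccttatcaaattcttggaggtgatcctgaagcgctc

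SP5 held 3 matches in its window, starting 148, 109 and 84 bases before the gene's start, and DKK1 held 2, at 95 and 76 bases. The windows of APCDD1, RNF43 and WIF1 held none. At least 1 of these 4 words is found in 4199 of the 35116 promoter windows of that length, so a match is common, and it describes letters and not a bound site. The SOX core was searched on both strands as AACAAT and, shifted by a base, as ACAATG, and its 2 forms can overlap each other. Neither is among the TCF/LEF words, but the cores are alike: CTTTGTT reads AACAAAG on the other strand, which shares AACAA with AACAAT. Looser forms of the SOX core, which the TCF/LEF words could also match, were not searched. At least 1 of the 2 SOX words searched was in 14.7% of all windows and in none of the 6 windows of the members. At that share, 6 windows are too few for this to be read as an absence. Cytosine and guanine made up 77.2% of the APCDD1 window, 62.8% of the DKK1 window and 45.6% of the SP5 window. The regulatory elements of these genes can lie outside such windows, which were all that was searched.

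APCDD1 (ENSG00000154856, chromosome 18, 10454635 to 10489949, plus strand) encodes a membrane glycoprotein that can bind WNT ligands and LRP5. It stood at 25.4 and 31.3 CPM in the SOX9 line without doxycycline and at 109.9 and 113 CPM with it. In the M303 line it was at 27.4 and 26.9 CPM without and 37.0 and 40.8 CPM with doxycycline. In the GFP line it was at 25.8 and 25.7 CPM without and 31.5 and 26.1 CPM with doxycycline. The induced SOX9 libraries lay far above the other 10, of which the 2 induced M303 libraries were the highest. The counts behind these levels were 784 to 5417 per library.

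The log2 fold change of APCDD1 with wild-type SOX9 was 1.98 (SE 0.11, 95% CI 1.75 to 2.21, edgeR adjusted p = 6.15e-10), the third smallest p of all genes tested. With M303 it was 0.52 (SE 0.11, 95% CI 0.29 to 0.75). Its unadjusted p in that comparison, 1.41e-04, was the fourth smallest of the 18219 genes, and its edgeR adjusted p of 0.642 did not pass. This call depended on the filter on low counts: with every gene that had a count in the fit, the edgeR adjusted p was 0.00701, at a log2 fold change of 0.52. DESeq2 gave an adjusted p of 0.237, and over all alternatives the adjusted p of APCDD1 with M303 ran from 0.00701 to 1.00. With GFP the log2 fold change was 0.16 (SE 0.11, adjusted p = 1.00).

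NKD1 (ENSG00000140807, chromosome 16, 50548396 to 50649249, plus strand) encodes a Dishevelled-binding protein of the cytoplasm. In the SOX9 line it stood at 87.3 and 96.8 CPM without and 188 and 218 CPM with doxycycline. In the M303 line it was at 91.0 and 95.5 CPM without and 109 and 121 CPM with doxycycline. In the GFP line it was at 104 and 99.2 CPM without and 116 and 96.0 CPM with doxycycline. Only the induced SOX9 libraries stood clear of the rest: the induced M303 libraries were above their own controls and overlapped the induced GFP libraries. The log2 fold change with wild-type SOX9 was 1.14 (SE 0.10, 95% CI 0.94 to 1.34, edgeR adjusted p = 2.15e-07). With M303 it was 0.30 (SE 0.10, unadjusted p = 0.00614, adjusted p = 1.00), and with GFP 0.07 (SE 0.10, adjusted p = 1.00).

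The plot of levels against SOX9 reads sets both genes against the SOX9 gene in the same library.

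**Figure D2:**
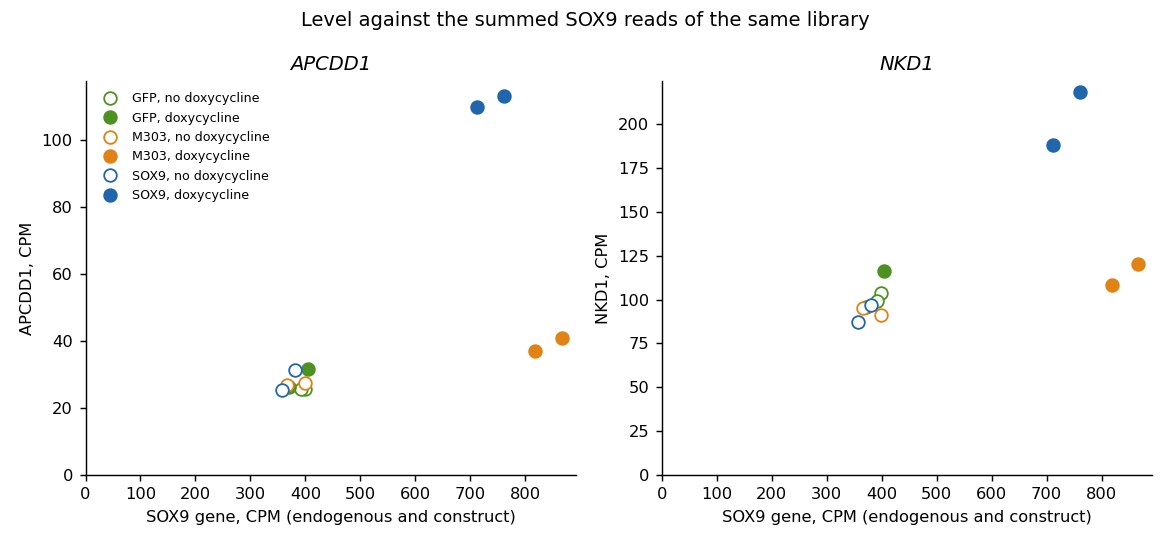
APCDD1 (left) and NKD1 (right) in CPM against the SOX9 gene in CPM, with 1 point per library, open without and filled with doxycycline. The induced M303 libraries have the highest SOX9 levels (818 and 867 CPM) but lie far below the induced SOX9 libraries in both genes.

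Of the genes acting on WNT receptors, ZNRF3 and RNF43 encode membrane ubiquitin ligases that remove Frizzled from the cell surface. ZNRF3 (ENSG00000183579, chromosome 22, 28883572 to 29057488, plus strand) ranged from 124 to 149 CPM over the 12 libraries. In the SOX9 line it was at 130.1 and 147 CPM without and 139 and 147 CPM with doxycycline, and these values overlapped. Its log2 fold change with wild-type SOX9 was 0.05 (SE 0.09, 95% CI -0.14 to 0.23, edgeR adjusted p = 0.896). With M303 the value was 0.05 (95% CI -0.14 to 0.24), and with GFP it was -0.08 (95% CI -0.27 to 0.11).

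RNF43 (ENSG00000108375, chromosome 17, 58353676 to 58417595, minus strand) was at 63.2 and 75.0 CPM in the SOX9 line without doxycycline and at 79.3 and 75.2 CPM with it. The induced values were just above the uninduced ones, and 1 induced GFP library, at 74.9 CPM, came close to them. The log2 fold change was 0.16 (SE 0.10, 95% CI -0.04 to 0.36, edgeR adjusted p = 0.497) with wild-type SOX9 and 0.06 (SE 0.10) with M303. In the annotation 69.0% of the exon bases of RNF43 are shared with other genes, 4326 of 6329 with ENSG00000285897 on the same strand. Reads on shared bases were not assigned, so its counts come mainly from the other 1959 bases and understate its level per gene.

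DKK1 and DKK4 encode secreted proteins that block LRP5 and LRP6. DKK1 (ENSG00000107984, chromosome 10, 52314281 to 52318042, plus strand) was at 33.4 and 29.1 CPM in the SOX9 line without doxycycline and at 30.5 and 27.2 CPM with it, which overlapped. In the GFP line it was at 24.2 and 27.2 CPM without and at 29.6 and 37.2 CPM with doxycycline, and the induced values lay above. In the M303 line it was at 26.4 and 29.2 CPM without and at 32.5 and 26.0 CPM with doxycycline, again overlapping. The log2 fold change of DKK1 was -0.12 (95% CI -0.39 to 0.16, edgeR adjusted p = 0.796) with SOX9. It was 0.07 (95% CI -0.20 to 0.35) with M303 and 0.38 (95% CI 0.10 to 0.65, unadjusted p = 0.0105, adjusted p = 1.00) with GFP. The highest DKK1 level of the study was therefore in a control library treated with doxycycline.

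DKK4 (ENSG00000104371, on chromosome 8) had 4 to 26 counts per library, or 0.0945 to 0.782 CPM, and the induced and uninduced libraries overlapped in each line. The 95% CI of its log2 fold change with wild-type SOX9, -2.31 to 1.86, allowed changes of several-fold either way (edgeR adjusted p = 0.959). With so few counts and 2 libraries per group, the data do not tell apart the changes within that interval.

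Of the genes acting on the ligand, NOTUM encodes a secreted enzyme that removes the lipid WNT needs for activity, and WIF1 a secreted protein that binds WNT. NOTUM (ENSG00000185269, chromosome 17, 81952507 to 81961840, minus strand) had 18 and 46 counts in the SOX9 line without doxycycline, or 0.482 and 1.30 CPM, and 122 and 60 counts with it, or 2.47 and 1.88 CPM. The induced SOX9 libraries were the highest of the 12, and the other 10 ranged from 0.267 to 1.30 CPM. Its log2 fold change was 1.30 (SE 0.58, 95% CI 0.10 to 2.51, unadjusted p = 0.0352, edgeR adjusted p = 0.311) with wild-type SOX9. That value rested on single libraries: it was 0.75 without uninduced SOX9 replicate 1 and 2.17 without uninduced SOX9 replicate 2. It was 0.43 (SE 0.61) with M303 and 0.73 (SE 0.61) with GFP.

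WIF1 (ENSG00000156076, chromosome 12, 65050626 to 65121305, minus strand) had 0 counts in all 12 libraries. Since each mate of a read pair was a count, 3 fragments, or up to 6 counts, were taken as the limit that a count of 0 allows, which is a level of up to 0.197 CPM in the library with the fewest reads. This limit covers counting error only. WIF1 was the member that failed the filter on low counts, and the other 9 passed it also when the induced SOX9 libraries were left out of the filter.

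Inside the cell, AXIN2 encodes a scaffold of the destruction complex and is widely read as a marker of beta-catenin activity. AXIN2 (ENSG00000168646, chromosome 17, 65528563 to 65561648, minus strand) was at 172 and 159 CPM in the SOX9 line without doxycycline and at 159 and 159.9 CPM with it. In the M303 line it was at 163 and 162 CPM without and at 167 and 167 CPM with doxycycline. In the GFP line it was at 174 and 161 CPM without and at 167 and 167 CPM with doxycycline. AXIN2 had the narrowest range of the members over the 12 libraries, with a highest to lowest ratio of 1.10, and its groups overlapped except in the M303 line. Its log2 fold change with wild-type SOX9 was -0.05 (SE 0.07, 95% CI -0.20 to 0.10, edgeR adjusted p = 0.841). That interval excludes a rise of the size seen in NKD1 or APCDD1. In the annotation 25.2% of the exon bases of AXIN2 are shared with ENSG00000266076, so its counts too are a lower limit.

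SP5 (ENSG00000204335, chromosome 2, 170715337 to 170718078, plus strand) encodes a zinc finger transcription factor that represses WNT target genes. It had 16 and 16 counts in the SOX9 line without doxycycline, or 0.428 and 0.450 CPM, and 50 and 66 with it, or 1.01 and 2.07 CPM. In the M303 line it was at 0.662 and 0.746 CPM without and at 0.520 and 0.460 CPM with doxycycline, the induced values being the lower. In the GFP line it was at 1.22 and 0.277 CPM without and at 0.264 and 0.441 CPM with doxycycline. One uninduced GFP library was thus above the lower of the 2 induced SOX9 libraries. The log2 fold change with wild-type SOX9 was 1.79 (SE 0.65, 95% CI 0.44 to 3.17, unadjusted p = 0.0122, edgeR adjusted p = 0.181), and those with M303 and GFP were -0.52 (SE 0.66) and -1.06 (SE 0.68). Leaving out 1 library moved the value with SOX9 to between 1.19 (without induced SOX9 replicate 2) and 2.22 (without induced SOX9 replicate 1).

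As a group, 2 of the 9 members tested rose with wild-type SOX9 and 0 fell, where 2.97% of all genes were called, 1.81% higher and 1.16% lower. DESeq2 called 2 members as well. The median log2 fold change of the 9 members was 0.16, against 0.01 over all genes tested. At an unadjusted p under 0.05 there were 4 members, APCDD1, NKD1, SP5 and NOTUM, where 13.8% of all genes had such a p. The 2 induced libraries both lay above the 2 uninduced ones for 5 members, which are these 4 and RNF43, where 23.2% of all genes did so, and lay below for 0 members, against 21.5% of all genes. The members were chosen with earlier results of these data known, so these counts beside all genes do not test them as a class. In bulk RNA, a gene active in fewer cells and a gene with less RNA per cell cannot be told apart, so these values do not say how many cells carried a rise.

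With M303, edgeR called 0 of the 9 members, and DESeq2 also called 0, while 2 members, APCDD1 and NKD1, had an unadjusted p under 0.05, as did 3.63% of all genes. Of all genes 0.00549% were called, which was the SOX9 gene alone. The median over the members was 0.06, and 4 members had both induced libraries above both uninduced ones, namely APCDD1, NKD1, AXIN2 and RNF43, where 17.1% of all genes did so. SP5 had both below, as did 16.8% of all genes. With GFP, edgeR called 0 members and 0% of all genes, and DESeq2 called 0 members. DKK1 alone had an unadjusted p under 0.05, as did 3.18% of all genes, and the median over the members was 0.00. APCDD1 and DKK1 had both induced GFP libraries above both uninduced ones, where 13.5% of all genes did so, and 0 members had both below, against 13.8% of all genes.

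The plot of fold changes shows each member's change with its interval.

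**Figure D3:**
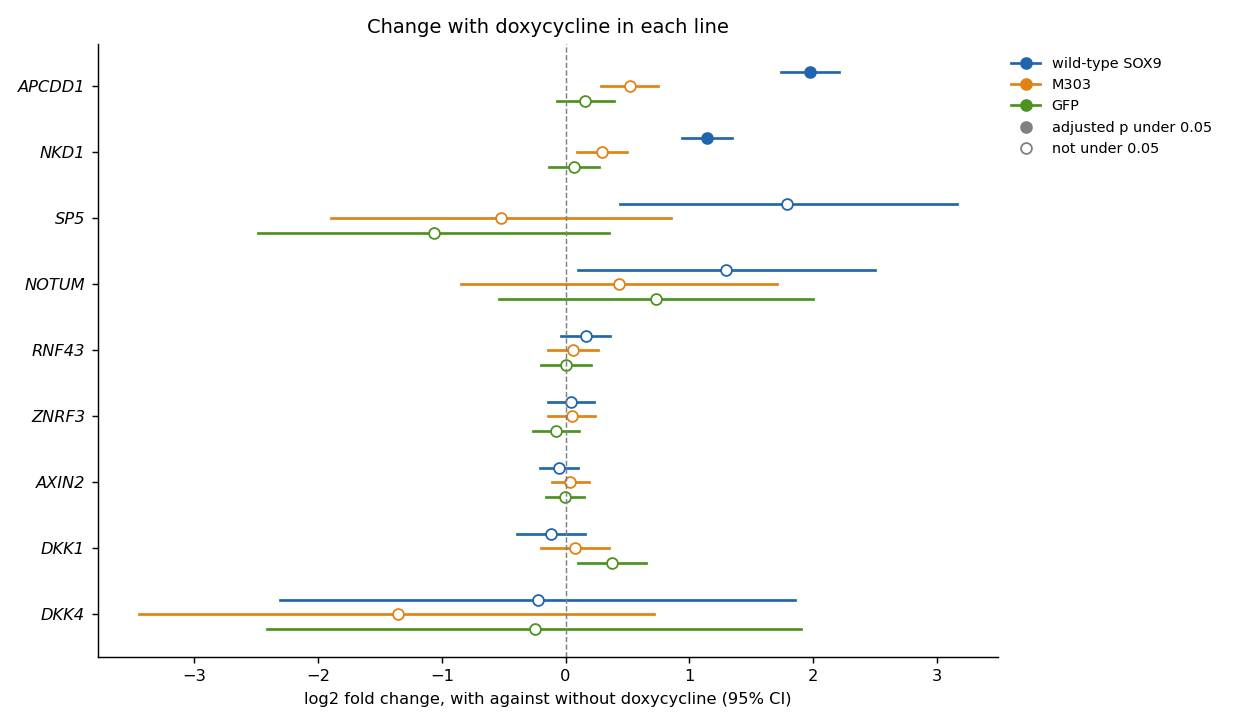
Log2 fold change of 9 members with against without doxycycline in each line, with 95% confidence intervals from edgeR, filled where the adjusted p was under 0.05. The filled points are APCDD1 and NKD1 with wild-type SOX9, at 1.98 and 1.14, and the intervals of SP5, NOTUM and DKK4 are wide.

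Whether wild-type SOX9 acted differently from M303 was tested as an interaction, the log2 fold change with SOX9 minus that with M303. The difference was 1.46 for APCDD1 (SE 0.15, 95% CI 1.14 to 1.78, edgeR adjusted p = 2.66e-05) and 0.84 for NKD1 (SE 0.14, 95% CI 0.56 to 1.13, adjusted p = 0.00253). These were 2 of the 9 members, where 0.489% of all genes were called and 0.357% were higher. The median difference over the 9 members was that of NKD1, since SP5, DKK4 and NOTUM, with wide intervals, had higher values, and over all genes tested it was -0.000299. For the SOX9 gene, whose reads do not compare the amounts of the 2 proteins, the difference was -0.14 (95% CI -0.36 to 0.07, adjusted p = 0.891). SP5 had a difference of 2.31 (SE 0.93, adjusted p = 0.582), which was 1.72 to 2.75 when 1 library was left out. For AXIN2 the difference was -0.09 (95% CI -0.31 to 0.12), for ZNRF3 -0.0039 (95% CI -0.27 to 0.26) and for RNF43 0.10 (95% CI -0.18 to 0.39). Each of these intervals includes 0, and each excludes a difference of the size measured for NKD1.

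Against GFP, the control for doxycycline and for an induced protein, the difference was 1.82 for APCDD1 (SE 0.16, 95% CI 1.49 to 2.14, edgeR adjusted p = 1.38e-06) and 1.08 for NKD1 (SE 0.14, 95% CI 0.79 to 1.36, adjusted p = 1.13e-04). Of all genes 0.895% were called in this comparison and 0.631% were higher. The median difference over the members was 0.16. SP5 had a difference of 2.86 (SE 0.94, unadjusted p = 0.00638, adjusted p = 0.263). It was 1.45 without uninduced GFP replicate 1 and 3.57 without uninduced GFP replicate 2. DKK1 had a difference of -0.49 (SE 0.19, unadjusted p = 0.0164, adjusted p = 0.391), which combines 0.38 with GFP and -0.12 with SOX9. This comparison shares the SOX9 libraries with the one against M303, so the 2 are not independent.

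For M303 against GFP, 0 members were called by edgeR and by DESeq2, where 0.00549% of all genes were called by edgeR, and the median difference over the members was 0.05. APCDD1 was the only member with an unadjusted p under 0.05, against 3.94% of all genes, at a difference of 0.36 (95% CI 0.03 to 0.68, unadjusted p = 0.0345, adjusted p = 0.992). The difference for NKD1 was 0.23 (95% CI -0.05 to 0.52, adjusted p = 0.992). A difference between M303 and the control did not pass the test for either gene. The plot of differences between inductions places all 3 side by side.

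**Figure D4:**
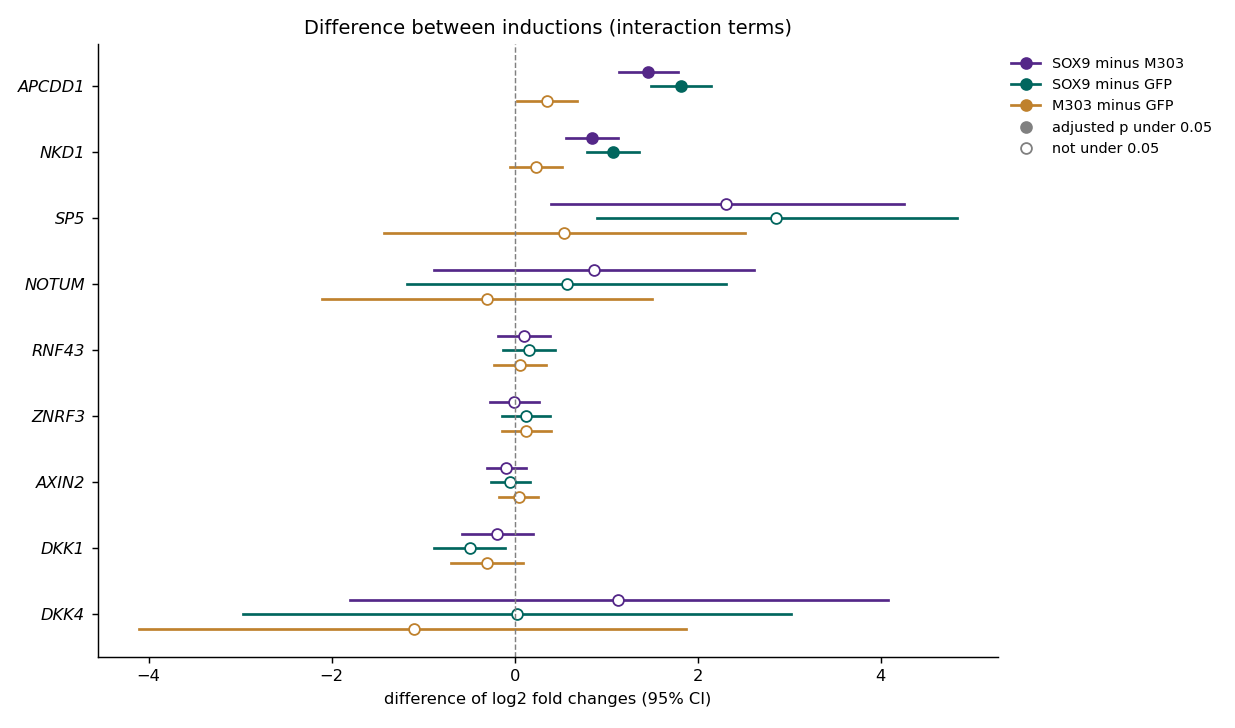
Difference of log2 fold changes between pairs of inductions for 9 members, with 95% confidence intervals from edgeR, filled where the adjusted p was under 0.05. APCDD1 and NKD1 are filled for SOX9 minus M303 (1.46 and 0.84) and for SOX9 minus GFP (1.82 and 1.08), and no member is filled for M303 minus GFP.

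Without doxycycline no member was called in the SOX9 line or the M303 line against the GFP line. The uninduced SOX9 and M303 lines were not tested against each other. The intervals of DKK4, SP5 and NOTUM were wide, reaching -0.96 to 3.18 on the log2 scale for DKK4 in the M303 line against GFP. In the uninduced SOX9 line against the uninduced GFP line edgeR called 0 members and 0% of all genes, and DESeq2 called 0 members. Only DKK1 had an unadjusted p under 0.05, against 4.75% of all genes, at a log2 difference of 0.28 (SE 0.13, unadjusted p = 0.0467, adjusted p = 0.920). In the uninduced M303 line against GFP both tools called 0 members, 0 had an unadjusted p under 0.05 (6.09% of all genes did), and 0.00549% of all genes were called. APCDD1 differed by 0.14 (95% CI -0.10 to 0.37) in the SOX9 line and by 0.08 (95% CI -0.16 to 0.31) in the M303 line. NKD1 differed by -0.14 (95% CI -0.34 to 0.06) and by -0.12 (95% CI -0.32 to 0.08). The starting levels of both genes were thus within these intervals of the control line, which are small beside their rises with wild-type SOX9. Both uninduced SOX9 libraries lay above both uninduced GFP libraries for DKK1 and DKK4 (16.7% of all genes) and below for NKD1 (14.8%). Both uninduced M303 libraries lay above them for APCDD1 and DKK4 (18.8%) and below for NKD1 and ZNRF3 (18.6%).

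The other 6 WNT pathway lists held 69 tested genes, of which 8, or 11.6%, were called with wild-type SOX9 (6 higher, 2 lower), where 2.97% of all genes were called. Their median log2 fold change was 0.05, against 0.01 over all genes. These lists too were chosen with earlier results of these data known. Of the 25 ligands and export factors listed, 9 were tested and 1 rose: WNT11, a ligand best known for signalling without beta-catenin, went from 3.83 and 5.52 CPM to 9.88 and 10.9 CPM (a log2 change of 1.15, SE 0.23, edgeR adjusted p = 0.00484). Of 18 receptors and co-receptors, 17 were tested and 1 rose: FZD2, a Frizzled receptor, went from 0.161 and 0.113 CPM to 1.22 and 1.13 CPM (log2 fold change 3.07, SE 0.76, adjusted p = 0.0255). FZD2 had 6 and 4 counts without doxycycline, and fewer fragments, since each mate of a read pair was a count. Its level in the M303 line without doxycycline was 0.662 and 0.906 CPM, so that its rise started from the lowest group.

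Of 16 other secreted or membrane inhibitors, 5 were tested and 1 fell: TRABD2A, also called Tiki1, a membrane protease that cuts WNT, went from 311 and 308 CPM to 255 and 261 CPM (log2 fold change -0.26, SE 0.07, edgeR adjusted p = 0.0345). None of 15 tested members of the destruction complex and other intracellular inhibitors was called by edgeR, with 3 at an unadjusted p under 0.05. None of 11 tested transducers and nuclear effectors was called by edgeR either, also with 3 at an unadjusted p under 0.05. CTNNB1, the gene of beta-catenin, differed by 0.12 on the log2 scale (SE 0.07, adjusted p = 0.435). TCF7L2, the main TCF factor of the intestine, had 0.33 (SE 0.09, adjusted p = 0.0564 by edgeR and 0.0239 by DESeq2), with 37.2 and 34.1 CPM without and 45.6 and 44.0 CPM with doxycycline.

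Of 16 further target genes of the pathway, 15 were tested, 4 rose and 1 fell, where 1.81% of all genes rose and 1.16% fell. At an unadjusted p under 0.05 there were 10 of the 15, against 13.8% of all genes. ETS2, a transcription factor, rose by 0.40 on the log2 scale (SE 0.06, edgeR adjusted p = 5.30e-04), from 595 and 590.1 CPM to 798 and 768 CPM. TNFRSF19, a receptor of the tumour necrosis factor receptor family found on intestinal stem cells, rose by 1.55 (SE 0.31, adjusted p = 0.00478), from 1.69 and 1.63 CPM to 4.50 and 5.25 CPM. CDX1, an intestinal homeobox factor, fell by 0.55 on the log2 scale (SE 0.11, adjusted p = 0.0127), from 215 and 272 CPM to 163 and 170.2 CPM. The other 2 that rose, named after their values were seen, were PROX1 (0.55, adjusted p = 0.0267) and CD44 (0.25, adjusted p = 0.0454).

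LGR5, the R-spondin receptor that marks crypt base stem cells, was at 74.5 and 67.3 CPM without and 84.6 and 83.6 CPM with SOX9 induced. Its log2 fold change was 0.25 (SE 0.09, unadjusted p = 0.0111, edgeR adjusted p = 0.173). MYC, a growth-promoting target, had -0.17 (SE 0.07, adjusted p = 0.273). No gene of these 6 lists was called by edgeR in any of the other 7 comparisons. Leaving out 1 library at a time ended the calls of WNT11, FZD2, TRABD2A, TNFRSF19, CDX1, PROX1 and CD44. The adjusted p rose most without induced SOX9 replicate 1 for CD44 (0.447) and TRABD2A (0.304), and without induced SOX9 replicate 2 for PROX1 (0.440) and TNFRSF19 (0.0713). It rose most without uninduced SOX9 replicate 2 for FZD2 (0.191) and CDX1 (0.141), and without uninduced SOX9 replicate 1 for WNT11 (0.0768). The calls of TRABD2A and CD44 were also lost without M303 libraries, which only share the estimate of the spread. ETS2, APCDD1 and NKD1 passed each time.

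**Figure D5:**
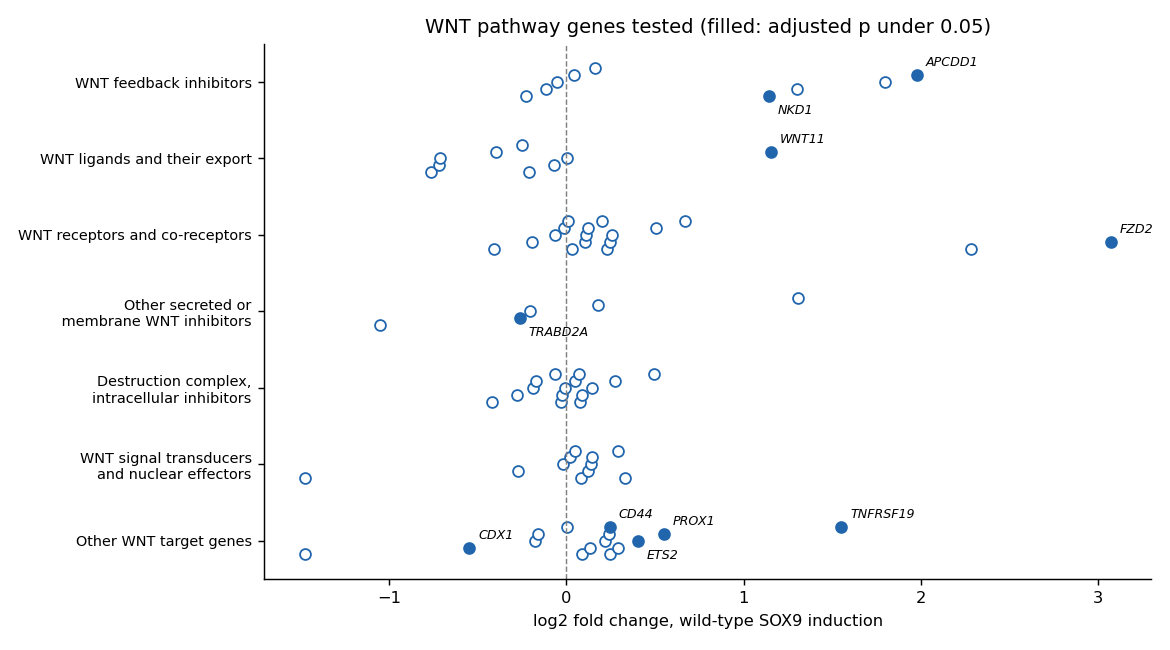
Log2 fold change with wild-type SOX9 for each tested gene of the 7 WNT pathway lists, with 1 point per gene, spread vertically only for legibility, and filled and named where edgeR's adjusted p was under 0.05. APCDD1 and NKD1 among the feedback inhibitors lie at 1.98 and 1.14, and no gene of the destruction complex list or the transducer list is filled.

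The genes with the most similar pattern to each member were found by the Pearson correlation of log2 CPM over the 12 libraries, as a description without a test. These points share libraries and depth, and the 2 induced SOX9 libraries weigh heavily for genes that rise there. For APCDD1 they were PRSS23, a serine protease (r = 0.985), GPC4, a glypican (r = 0.980), and SLC5A1, the intestinal sodium and glucose transporter (r = 0.977). Without the induced SOX9 libraries these 3 correlations were 0.784, 0.755 and 0.752 over 10 libraries. PRSS23 went from 102 and 106 CPM to 298 and 295 CPM with wild-type SOX9, GPC4 from 76.4 and 78.9 to 107 and 112 CPM, and SLC5A1 from 23.0 and 24.2 to 48.0 and 45.3 CPM.

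For NKD1 they were UTP20, a ribosome assembly factor (r = 0.980), APCDD1 itself (r = 0.973) and GDPD5, a glycerophosphodiester phosphodiesterase (r = 0.973). Without the induced SOX9 libraries the correlation of NKD1 with APCDD1 was 0.770. For ZNRF3 the leading genes were PPL, PTPRF and FLNA, at 0.936, 0.920 and 0.912, and without the induced SOX9 libraries these were 0.981, 0.914 and 0.920. FLNA, the actin cross-linker filamin A, had 924 and 1254 CPM in the 2 uninduced SOX9 libraries, in which ZNRF3 too was lower in the first than in the second. For DKK1 it was SRSF3, a splicing factor, at 0.910. For AXIN2, NOTUM and RNF43 no gene reached 0.9.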

How the data were processed

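The deposited values were whole-number read counts per gene. Per the submitters' processing notes, the authors aligned reads to hg38 with STAR 2.7.0a. Per the file headers they counted with featureCounts 2.0.1 on Ensembl release 101, with no strand or paired option, so that each mate was a count, and without reads that map to several places or to more than 1 gene. The deposited exon lengths and coordinates, another kind of value in the same table, gave levels per kilobase. Reads were 150 bp. Symbols were matched for 42020 of 60671 gene identifiers.

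The tests used edgeR 4.0.16 under R 4.3.3 (filterByExpr, TMM, robust quasi-likelihood, 1 mean per group over all 12 libraries, 6 residual degrees of freedom). The biological coefficient of variation was 10.6%. Among genes with a mean of at least 1 CPM, the median SE of a log2 fold change was 0.12 for an induction and 0.17 for a difference of inductions. There were 8 comparisons. Alternatives were DESeq2 1.42.0, median-of-ratios size factors, no filter, the compared groups alone, a replicate block and leaving out each library. In 1 simulation of the SOX9 induction (17580 genes), changes were placed only in genes above 1 CPM. There 80% of 2-fold changes and 49% of log2 changes of 0.5 were recovered, with 9 false calls. These rates do not cover DKK4 and SP5, which lie below that level. They say little about NOTUM, whose mean of 1.02 CPM barely exceeds it. The SE of NOTUM with wild-type SOX9 was 0.58, far above the median of 0.12.

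The members and gene lists were chosen with earlier results of these data known. Named were all members, SOX9, LGR5, CTNNB1, TCF7L2, MYC, up to 3 called genes per list and comparison by adjusted p, and up to 3 genes per member of at least 1 CPM with a correlation of at least 0.9 (0.5 counts added before the log2). The 2 libraries of each group differed by more than counting noise (chi-square per degree of freedom of 6.60 to 18.7). Counting each mate of a read pair raises this value by itself, and genes with many counts weigh most in it.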

Additional observations from a re-analysis of the deposited data

Results flagged for a closer look

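For 2 members the response differed between lines by a test of the difference itself (edgeR interaction terms). The response of APCDD1 to wild-type SOX9 exceeded that to M303 by 1.46 on the log2 scale (adjusted p = 2.66e-05) and that to GFP by 1.82 (adjusted p = 1.38e-06). The response of NKD1 exceeded that to M303 by 0.845 (adjusted p = 0.00253) and that to GFP by 1.08 (adjusted p = 1.13e-04). In each case both induced SOX9 libraries lay above all of the other 10. The construct and the line that carries it cannot be told apart. With 2 libraries per group, no library could be checked as an outlier of its group.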

How the results depend on the processing

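The number of members called kept its value (2 for SOX9 induction and for its differences from M303 and GFP, 0 elsewhere) under each alternative but 1. With every gene that had a count in the edgeR fit, 1 member, APCDD1, was called for M303 induction. That setting gave 9 called genes in all for M303 induction (1 in the fit as reported), 4 for GFP induction (0), 147 for SOX9 minus M303 (89), 270.0 for SOX9 minus GFP (163), 11 for M303 minus GFP (1), 17 for uninduced SOX9 against GFP (0) and 22 for uninduced M303 against GFP (1). DESeq2 called 2 genes for M303 induction, 2 for GFP induction and 2 for uninduced SOX9 against GFP. On the compared groups alone the count was 3 for M303 induction and 1 for uninduced SOX9 against GFP.

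Leaving out 1 library, which leaves its group with 1 library assumed to vary like the others, moved the called genes from 541 to between 231 (without induced SOX9 replicate 2) and 675 for SOX9 induction. Without induced SOX9 replicate 1 there were 270.0, and without uninduced SOX9 replicate 2 there were 301. The ranges were 1 to 2 for M303 induction, 0 to 9 for GFP induction, 57 to 107 for SOX9 minus M303, 95 to 229 for SOX9 minus GFP, 1 to 12 for M303 minus GFP, 0 to 39 for uninduced SOX9 against GFP and 0 to 56 for uninduced M303 against GFP. The counts of 9, 12, 39 and 56 each came without uninduced GFP replicate 1, and those of 57 and 95 without induced SOX9 replicate 2. For SOX9 minus GFP there were 108 without induced SOX9 replicate 1. The log2 fold change of APCDD1 with SOX9 stayed at 1.83 to 2.13 and that of NKD1 at 1.02 to 1.24.

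Uncalled values changed sign when 1 library was left out. With SOX9 these were AXIN2 (-0.11 to 0.0074), ZNRF3 (-0.042 to 0.13) and DKK4 (-1.29 to 0.43). With M303 they were NOTUM (-0.23 to 1.61), ZNRF3 (-0.016 to 0.11) and DKK1 (-0.10 to 0.23). With GFP they were NKD1 (-0.078 to 0.20), AXIN2 (-0.059 to 0.056), ZNRF3 (-0.21 to 0.045), RNF43 (-0.12 to 0.12), DKK4 (-0.60 to 0.036) and SP5 (-1.78 to 0.34). Among differences they were NOTUM against M303 (-0.31 to 1.74) and GFP (-0.30 to 1.44), and RNF43 against M303 (-0.017 to 0.23).

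The replicate numbers showed no clear pairing of the libraries: the correlation of replicate differences was -0.08 to 0.05 between groups compared directly. Between other groups, some of which enter the interactions, it reached -0.23 (induced GFP and uninduced SOX9) and 0.21 (induced M303 and uninduced SOX9). With a replicate block, 452 genes were called for SOX9 induction, and the 2 members remained. The calls of TRABD2A (adjusted p = 0.0718) and CD44 (0.0899) were lost under the block. The cause of these shifts was not tested. Counts of 4 to 122 per library limit DKK4, SP5 and NOTUM, and the fragments behind them were fewer, since each mate was a count.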
